A study of Homo sapiens with 12 samples.

Results

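The comparison described here is the effect of alisertib in MDA-MB-231 cells that also received TGFβ. MDA-MB-231 is a long-established human cell line from a triple-negative breast tumour, with a mesenchymal-like, basal B state. Of the 12 RNA-sequencing libraries of the series, the 3 labelled as the combination (replicates 10, 11 and 12, TGFβ and alisertib) were set against the 3 labelled TGFβ alone (replicates 4, 5 and 6), so all 6 libraries share TGFβ and differ in alisertib. Treatment lasted 48 h. Doses, and whether the drugs were given at the same time, are not stated by the labels. The other 6 libraries are 3 from untreated cells (1, 2 and 3) and 3 from cells given alisertib without TGFβ (7, 8 and 9), and serve here to estimate the spread and to set the alisertib effect without TGFβ beside that with it. Of 57773 genes in the count table, 20571 passed the expression filter and make up the comparison. The labels do not state whether separate cultures gave the 3 libraries of each group, and the p-values then describe only how far these libraries spread, which may be technical.

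Alisertib is a small-molecule inhibitor of Aurora A, a serine/threonine kinase that is switched on by TPX2 at the spindle and drives centrosome maturation, mitotic entry and spindle assembly. Cells in which Aurora A is blocked are delayed in mitosis and can leave it with abnormal DNA content. TGFβ is a secreted factor that signals through receptor kinases and SMAD proteins, slows the cycle of many epithelial cells and promotes the epithelial-mesenchymal transition, in which cells lose junctions and gain matrix and motility genes. Genes of DNA synthesis are under the control of E2F factors and peak around entry into S phase, whereas genes of mitosis peak later, in G2 and M.

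Levels are given as CPM, counts per 1e6 counts, scaled with library factors (TMM). A log2 change is combination minus TGFβ unless stated otherwise, with its standard error (SE). The adjusted p is from edgeR's quasi-likelihood test fitted on all 12 libraries with Benjamini-Hochberg adjustment over the 20571 genes, and a gene is said to have risen or fallen where the adjusted p is under 0.05. Total counts were 110282980 to 118220032 in the TGFβ libraries and 105921831 to 120619368 in the combination libraries, and mitochondrial transcripts took 3.22% to 3.62% of them. By chi-square per degree of freedom between pairs, untreated library 1, TGFβ library 6 and combination library 10 stood apart from their partners. In the TGFβ group it was 4.71 for libraries 4 and 5, and 23.5 and 26.0 for the pairs with 6. The alisertib group was less clear, with 9.16 for libraries 7 and 8, 10.7 for 8 and 9, and 20.9 for 7 and 9. Alisertib library 9 is counted below among the 4 libraries that stand apart. The deviations of TGFβ library 6 and combination library 10 from their group means correlated at 0.838 over 11306 genes. They followed the GC content of the genes with Spearman's rho of -0.754 and -0.785, against 0.518 to 0.729 in the other 4 TGFβ and combination libraries. The log2 change itself had a rho of -0.234 with GC content. The count over all genes and those of most lists below are therefore also given without the 4 libraries. Of the markers that define the basal B state all 12 were measured and tested, with a summed level of 17132 to 17612 CPM with TGFβ and 17181 to 17759 CPM with the combination, and none passed the test. Without the 4 libraries 1 of these 12 was called higher, as were 1 leukocyte and 1 endothelial marker of the lists described with the results, and 1 luminal marker was called lower.

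In TGFβ-treated cells alisertib lowered genes of DNA replication and, less broadly, of sterol and nucleotide synthesis. It raised a mixed group with some cytokines, some ligands of the EGF receptor family and the proteases CPA4 and MMP1. Most changes were under 1.5-fold. Of 20571 genes 428 passed the test, 2.08%, with 245 higher (1.19%) and 183 lower (0.890%) in the combination. Only 78 of the higher and 20 of the lower genes differed by 1.5-fold or more, and 27 and 5 by 2-fold or more. The median log2 change was 0.44 among genes that rose and -0.35 among genes that fell, against 0.004 over all tested genes. In all 428 the 3 values of one group did not overlap the 3 of the other, which held for 20.4% of the tested genes. Where a called gene is said below to separate the groups, this adds no support to its call. The genes that fell were more abundant, with a median level of 43.7 CPM against 10.6 CPM for those that rose. At an unadjusted p under 0.05 there were 2639 genes. The count was 689 with DESeq2 and 1434 without the 4 libraries that stand apart, where 47.6% of the calls were higher and 52.4% lower, against 57.2% and 42.8% in the fit reported. Fitted on the 6 libraries alone it was 307, 45.6% of them higher and 54.4% lower. Without TGFβ library 4 it was 153, without TGFβ library 5 it was 180, without TGFβ library 6 it was 232, and without combination libraries 10, 11 or 12 it was 243, 211 and 226. Members of lists counted below without the 4 libraries that stand apart come from the fit with 1434 calls. The shares of 1.19% and 0.890% belong to the fit reported and are no reference for those counts.

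**Figure D1:**
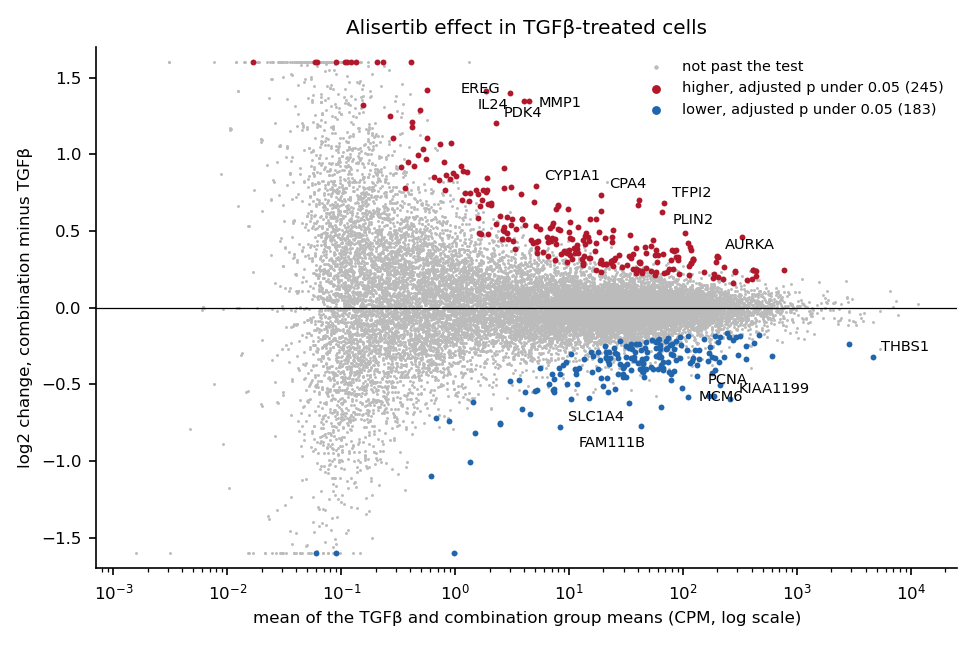
Log2 change (combination minus TGFβ, vertical axis) of each of the 20571 tested genes against its level (mean of the 2 group means in CPM, log scale), with the 245 genes that rose in red and the 183 that fell in blue. Changes beyond 1.6 on either side, 155 genes, are drawn at the edge, and the genes that fell lie further to the right, with a median of 43.7 CPM against 10.6 CPM.

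The drug's target rose slightly. AURKA, which encodes Aurora A (chr20:54944445-54967393, hg19), stood at 174, 172 and 178 CPM in the 3 TGFβ libraries and at 232, 219 and 214 CPM in the combination libraries. All 3 combination values lay above all 3 TGFβ values, a rise of 0.34 ± 0.06 SE on the log2 scale with an adjusted p of 0.0121. The call was lost without TGFβ library 4 (adjusted p = 0.069), TGFβ library 5 (0.065) or combination library 10 (0.053). None of the other 15 tested genes of Aurora kinases and partners passed the edgeR test (5 of the 16 had an unadjusted p under 0.05, and DESeq2 called 2), and the list's median was 0.07. AURKA made up 6.25% of the list, against 1.19% of all tested genes called higher. The fit without the 4 libraries that stand apart called 3 members higher. TPX2, the activator of Aurora A, had 406 and 431 CPM on average (log2 change 0.09 ± 0.06 SE, adjusted p = 0.671). AURKB, the Aurora kinase of the chromosomal passenger complex, had 55.9 and 52.0 CPM (adjusted p = 0.657), and PLK1, a mitotic kinase activated by Aurora A, had 59.0 and 64.1 CPM (adjusted p = 0.519).

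The genes of mitosis as a group had no common direction. Of 57 tested genes of mitotic entry, checkpoint and exit, none rose, 3 fell (5.26%, against 0.890% of all tested genes) and 54 did not pass the test, with a median log2 change of 0.01, 30 positive and 27 negative. In the fit without the 4 libraries that stand apart, which called 1434 of all genes against 428, 8 rose and 8 fell. The 3 that fell encode kinetochore proteins: ZWINT and KNTC1, which act in the spindle checkpoint, and CENPK, a subunit of the inner kinetochore. ZWINT went from 155, 153 and 156 CPM to 126, 123 and 119 CPM (log2 change -0.34 ± 0.04 SE, adjusted p = 0.00108) and KNTC1 from a mean of 136 to 109 CPM (adjusted p = 0.00517). CENPK fell by less (-0.28, adjusted p = 0.0447), and its call was lost in each of the 6 fits with 1 library left out, with adjusted p-values of 0.056 to 0.19. CCNB1, the cyclin of mitotic entry, stood at 296, 305 and 298 CPM and 321, 317 and 319.5 CPM, and its kinase partner CDK1 at 155, 155 and 167 and 172, 156 and 164 CPM. Neither passed the test (adjusted p = 0.641 and 0.859), although the CCNB1 values of the groups did not overlap and those of CDK1 did. Among 12 mitotic kinesins KIF20A, a motor of the spindle midzone and cytokinesis, rose from 171, 175 and 173 to 221, 211 and 208 CPM (log2 change 0.30 ± 0.06 SE, adjusted p = 0.0145), and KIF15, a spindle motor, fell from 63.1 to 52.6 CPM on average (adjusted p = 0.0404). Both calls depended on single libraries: KIF20A lost it in 4 of the 6 fits with 1 left out (adjusted p of up to 0.084) and KIF15 in all 6 (up to 0.14). Each made up 8.33% of the kinesins, against 1.19% of all tested genes called higher and 0.890% lower. When the 4 libraries that stand apart were left out, 1 kinesin rose and 2 fell. None of 21 tested genes of the centrosome and spindle microtubules passed the edgeR test, with a median of -0.03, 3 at an unadjusted p under 0.05 and 0 with DESeq2, while 2 fell without the 4 libraries that stand apart.

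DNA replication was the group that moved most. Of 47 tested genes 26 fell (55.3%, against 0.890% of all tested genes) and none rose, with a median log2 change of -0.31 against 0.004 over all tested genes. A total of 45 of the 47 changes were negative, and in 38 the 3 combination values lay below the 3 TGFβ values. Over all tested genes 51.2% of the changes were positive, and the groups did not overlap in 20.4%. That 20.4% counts genes in either direction, and the share for the lower direction alone is not given here. In bulk RNA, fewer cells in S phase and less RNA per cell cannot be told apart. The genes that fell span the steps of replication: origin licensing and the helicase that unwinds DNA (MCM2, MCM3, MCM4, MCM6, MCM7, MCM10, ORC1, GMNN, CDC45, GINS2), the primase and polymerases (PRIM1, POLA1, POLA2, POLE, POLD3), the sliding clamp and its loader (PCNA, RFC2), processing and joining of nascent strands (FEN1, LIG1, DNA2), chromatin assembly (CHAF1A, CHAF1B, ASF1B), methylation upkeep (UHRF1) and fork protection (CLSPN, TIMELESS). Their log2 changes ran from -0.58 to -0.23. Members that did not pass the test included all 3 subunits of the single-strand binding protein RPA (RPA1 -0.12, RPA2 -0.04, RPA3 -0.21), and MCM5, which had one of the larger changes (-0.47, adjusted p = 0.0918). The only positive values were those of PRIM2 (0.03) and DBF4, the activating subunit of the CDC7 kinase (0.23), neither past the test.

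MCM6, a subunit of the replicative helicase (chr2:136597196-136633996, hg19), had 132, 127 and 139 CPM with TGFβ and 95.5, 85.7 and 84.6 CPM with the combination. GINS2, which joins the helicase to the polymerases, had 26.7, 26.6 and 25.5 and 19.4, 17.1 and 17.3 CPM. PCNA, the sliding clamp, had 153, 149.9 and 154 and 115, 107 and 113 CPM, and CDC45, a helicase cofactor, 35.6, 34.3 and 33.7 and 24.9, 24.6 and 26.2 CPM. In these 4 genes every combination library lay below every TGFβ library, as in every gene that fell. The log2 changes were -0.58 ± 0.07 SE for MCM6 (adjusted p = 0.00111), -0.55 ± 0.07 for GINS2 (0.00144), -0.45 ± 0.06 for PCNA (0.00142) and -0.45 ± 0.06 for CDC45 (0.00113), and the calls held in all 12 alternative fits. PRIM1, the catalytic primase subunit, went from 23.2 to 16.3 CPM on average (log2 change -0.51, adjusted p = 0.00276). CLSPN, the adaptor of the replication checkpoint, went from 89.0 to 66.1 CPM (-0.43, 0.0116), and its call was lost without TGFβ library 4 (adjusted p = 0.065), TGFβ library 6 (0.051) or combination library 11 (0.052). GINS2 shares its locus with GSE1 and PRIM1 with NACA, and the library kit does not mark the strand, so their reads may be mixed. Without the 4 libraries that stand apart 38 of the 47 fell and 1 rose, and with 1 library left out between 12 (without TGFβ library 4) and 17 (without TGFβ library 6).

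The promoters of these genes are shown because they fell together. The sequences are from RefSeq on GRCh38.p14 and lie within the 250 bases before the start of the gene, read 5′ to 3′ on the gene's strand. Capitals mark the letters TTTCCCGC, TTTGGCGC, TTTCGCGC or TTTGCCGC, a core that E2F factors are known to bind, or their reverse complement. In MCM6 the capitals hold matches to TTTGGCGC and TTTCGCGC that overlap each other at 2 places, and CDC45 holds none.
MCM6 (chr2:135876489-135876628, minus strand): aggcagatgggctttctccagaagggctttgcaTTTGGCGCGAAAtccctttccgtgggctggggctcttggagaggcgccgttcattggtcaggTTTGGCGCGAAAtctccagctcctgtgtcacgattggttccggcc
GINS2 (chr16:85688955-85689094, minus strand): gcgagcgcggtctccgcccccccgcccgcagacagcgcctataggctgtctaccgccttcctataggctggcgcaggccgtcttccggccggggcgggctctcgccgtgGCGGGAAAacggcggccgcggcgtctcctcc
PCNA (chr20:5126623-5126762, minus strand): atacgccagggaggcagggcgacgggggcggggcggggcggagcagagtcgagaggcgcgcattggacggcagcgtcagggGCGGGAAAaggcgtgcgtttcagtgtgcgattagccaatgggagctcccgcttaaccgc
CDC45 (chr22:19479780-19479919, plus strand): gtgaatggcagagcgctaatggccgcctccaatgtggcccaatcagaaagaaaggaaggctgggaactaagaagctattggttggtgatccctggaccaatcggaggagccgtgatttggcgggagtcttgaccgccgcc
Over the 250 bases before the start and on both strands, these letters were found in 10 of the 23 promoters at hand for the 26 replication genes that fell (43.5%), namely those of GINS2, LIG1, MCM3, MCM6, MCM7, PCNA, POLA1, POLA2, POLE and UHRF1. Among all tested replication genes, fallen or not, they were found in 12 of 40 promoters (30%). They were found in 26 of 140 promoters of all genes that fell (18.6%), in 0 of 169 of genes that rose, in 4.22% of the 12439 promoters matched to a tested gene and in 2.79% of all 27305 promoters of the table. Of 48 promoters of mitotic genes 3 held them (6.25%), while 22 (45.8%) held TTTGAA, the core of the element known as CHR, against 8.88% of the tested promoters and 13.6% of the table. The letters CCAAT were in 69.6% of promoters of the replication genes that fell and 57.5% of those of all tested replication genes. They were in 44.3% of promoters of all genes that fell and 34.5% of the tested promoters. A match describes letters and is no evidence of binding.

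**Figure D2:**
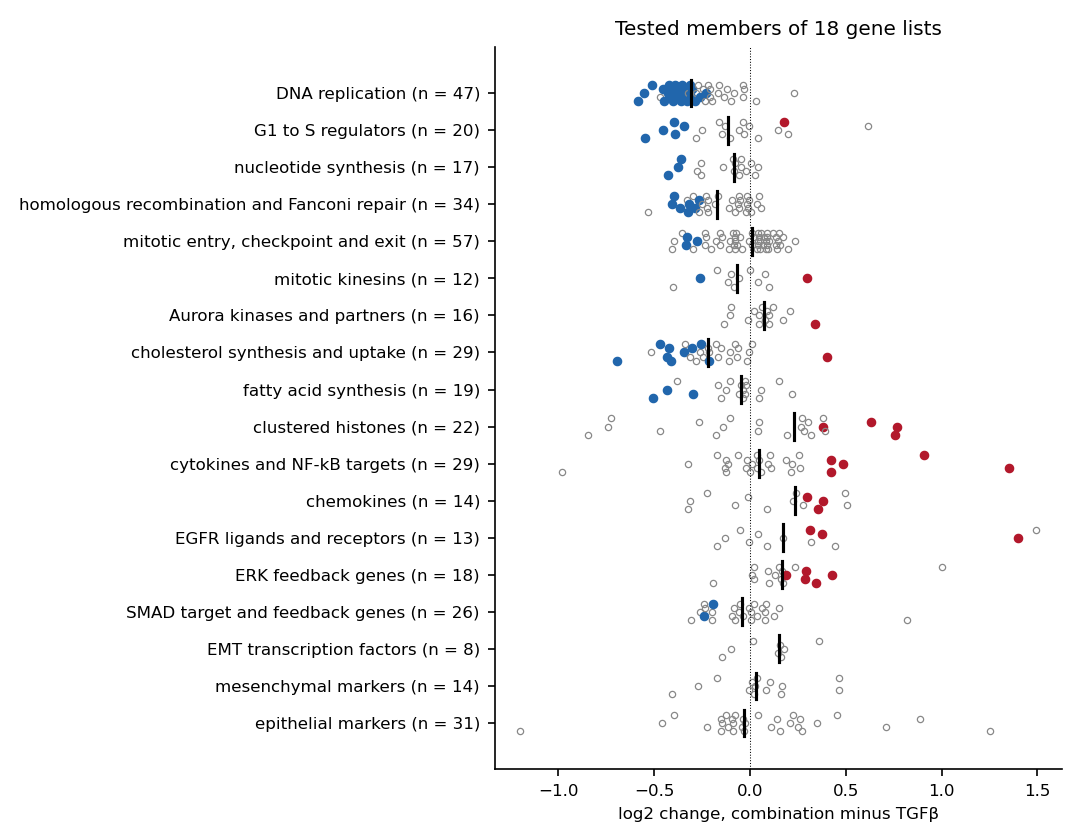
Log2 change (combination minus TGFβ) of each tested member of 18 gene lists, 1 point per gene, with filled points for genes past the test (red higher, blue lower), open points for the rest and a black bar for the list's median. The 47 replication genes centre on -0.31 and the 57 mitotic genes on 0.01.

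Other genes of the passage from G1 to S fell with the replication genes. Of 20 tested G1 to S regulators 5 fell (25%, against 0.890% of all tested genes) and 1 rose (5%, against 1.19%), with a median of -0.11. E2F2, an activating E2F factor, had 5.79, 6.23 and 5.93 CPM and then 3.98, 4.29 and 4.03 CPM (log2 change -0.55 ± 0.08 SE, adjusted p = 0.00239). CCNE2, cyclin E2, went from 36.8, 34.9 and 37.4 to 28.5, 25.2 and 25.9 CPM (-0.45 ± 0.08 SE, adjusted p = 0.00593). Both genes separated the groups, as did every called gene. The others that fell were E2F8, an E2F repressor (-0.40, adjusted p = 0.00275), SKP2, a ubiquitin ligase subunit that marks CDK inhibitors for degradation (-0.34, 0.00593), and E2F1 (-0.39, 0.0279). The E2F1 call was lost in 5 of the 6 fits with 1 library left out, with adjusted p-values of up to 0.13. CCND1, cyclin D1, moved the other way, from 346, 346 and 341 to 374, 397 and 396 CPM (0.18 ± 0.04 SE, adjusted p = 0.037), and lost its call in 5 of those 6 fits (up to 0.21). Without the 4 libraries that stand apart 9 of the regulators fell and 3 rose.

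Of 17 tested genes of nucleotide synthesis 3 fell (17.6%, against 0.890% of all tested genes) and none rose (median -0.08). TYMS, thymidylate synthase, stood at 211, 204 and 206 CPM with TGFβ and 154, 157 and 151 CPM with the combination (log2 change -0.43 ± 0.05 SE, adjusted p = 0.000547). DUT, which removes dUTP, went from a mean of 45.3 to 35.4 CPM (adjusted p = 0.013), and lost the call in 3 of the 6 fits with 1 library left out (up to 0.071). In both the combination values lay below the TGFβ values. TYMS overlaps ENOSF1, and their reads may be mixed. None of the members of purine synthesis in the list passed the test (PPAT 0.01, GART -0.04, PAICS -0.08, ATIC 0.04). The list had 7 lower genes without the 4 libraries that stand apart.

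Among 34 tested genes of homologous recombination and Fanconi repair 7 fell (20.6%, against 0.890% of all tested genes) and none rose, and the median was -0.17. BRIP1, a helicase partner of BRCA1, went from 52.6, 51.7 and 56.3 to 42.9, 40.1 and 38.9 CPM (log2 change -0.40 ± 0.06 SE, adjusted p = 0.00289). EXO1, a nuclease of end resection, went from 39.7 to 29.9 CPM on average (-0.41, 0.0111). The others were FANCA (-0.36), FANCG (-0.29) and FANCL (-0.32), members of the Fanconi core complex, RAD54L, a motor of strand exchange (-0.32), and BRCA1 (-0.27). The damage kinases ATM (-0.01) and ATR (-0.005) did not pass the test. Of the named genes of this list only BRIP1 kept its call in every fit with 1 library left out; the count of 7 became 1 without TGFβ library 4, 2 without TGFβ library 5, combination library 11 or combination library 12, 5 without TGFβ library 6 or combination library 10, and 15 without the 4 libraries that stand apart.

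Genes of sterol supply fell as well. Of 29 tested genes of cholesterol synthesis and uptake 9 fell (31.0%, against 0.890% of all tested genes) and 1 rose (3.45%, against 1.19%), with a median of -0.22 and 27 negative changes. HMGCS1, which makes the precursor of mevalonate, had 88.1, 90.0 and 95.4 CPM with TGFβ and 67.8, 63.6 and 66.1 CPM with the combination. INSIG1, the sterol sensor that holds back SREBP, had 82.1, 85.4 and 89.0 and 61.6, 63.7 and 66.1 CPM. The groups did not overlap in either gene. The log2 changes were -0.47 ± 0.06 SE (adjusted p = 0.000684) and -0.42 ± 0.05 (0.00105). HSD17B7, ACAT2, MSMO1, FDPS and IDI1 also fell, with log2 changes from -0.43 (HSD17B7) to -0.21 (IDI1). ABCA1, which exports cholesterol, was the member that rose, from 43.0, 44.9 and 47.4 to 61.0, 59.5 and 58.4 CPM (0.40 ± 0.07 SE, 0.0116). With 1 library left out between 4 (without TGFβ library 5 or combination library 11) and 6 of the list fell, and without the 4 libraries that stand apart 17 fell and 1 rose. HSD17B7 lost the call in 4 of these 6 fits (adjusted p of up to 0.097) and ABCA1 in those without TGFβ libraries 4 (0.080) and 5 (0.055).

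Of 19 tested genes of fatty acid synthesis 3 fell (15.8%, against 0.890% of all tested genes) and none rose (median -0.05). SCD, the desaturase that makes oleate, went from 227, 250.2 and 260.4 to 172, 172 and 176 CPM (log2 change -0.51 ± 0.06 SE, adjusted p = 0.000625), and FADS1, a desaturase of polyunsaturated fatty acids, from 184, 182 and 196 to 155, 152 and 150.2 CPM (-0.30 ± 0.04 SE, 0.00187). Both separated the groups by more than the spread within them. ACACB, an acetyl-CoA carboxylase, was called at -0.43 (adjusted p = 0.0412) and lost the call with any 1 of the 6 libraries left out (0.069 to 0.17). FASN, fatty acid synthase, did not pass the test (-0.17, adjusted p = 0.866). Members of this list without the 4 libraries that stand apart numbered 2 higher and 4 lower. The letters CACCCCAC, a core that SREBP factors can bind, were in 0 of the 6 promoters at hand for the cholesterol genes that fell, in 2 of 21 for all tested members of that list (9.52%), in 4.73% of those of genes that rose and in 2.17% of the tested promoters.

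Inflammatory cytokines made up part of the genes that rose. Of 29 tested cytokines and NF-κB targets 5 rose (17.2%, against 1.19% of all tested genes) and none fell, with a median of 0.05. IL24, a cytokine of the IL-10 family, had 2.61, 1.90 and 2.22 CPM with TGFβ and 7.07, 5.08 and 5.03 CPM with the combination (log2 change 1.35 ± 0.15 SE, adjusted p = 0.000606). IL1B, interleukin 1β, had 1.90, 1.89 and 1.79 and 3.40, 3.28 and 3.80 CPM (0.91 ± 0.10 SE, 0.000675). Both are low-abundance transcripts here. TNFSF15, a cytokine of the TNF family, went from 90.9, 93.3 and 101 to 132, 122 and 128 CPM (0.42 ± 0.05 SE, 0.00104), IL1A, interleukin 1α, from 84.4, 82.2 and 92.2 to 127, 114 and 120.9 CPM (0.48 ± 0.09 SE, 0.016), and IL7R, the receptor of interleukin 7, from 14.6 to 19.5 CPM on average (0.0132). IL1A and IL7R each lost the call in 4 of the 6 fits with 1 library left out (adjusted p of up to 0.090 and 0.083). IL6 did not pass the test, at 76.3, 77.1 and 77.1 and 90.0, 86.1 and 87.0 CPM (0.19 ± 0.06 SE, adjusted p = 0.111), although its groups did not overlap, and it was called without the 4 libraries that stand apart (0.0225) and with an indicator for them (0.0041). Leaving out these 4 libraries gave 9 higher and 3 lower members of the list. Of 14 tested chemokines and receptors 3 rose (21.4%, against 1.19% of all tested genes), IL8 (0.30), CXCL2 (0.38) and the receptor CXCR4 (0.36), with a list median of 0.23. Their adjusted p-values lay between 0.0225 and 0.0433, and the count was 0 or 1 in each of the 6 fits with 1 library left out (0 without TGFβ libraries 4 or 5 or combination libraries 10 or 12) and 3 without the 4 libraries that stand apart. Leukocyte markers summed to 72.7 to 80.9 CPM with TGFβ and 81.5 to 92.9 CPM with the combination, mostly from CD68. Of those 12 markers 6 were tested and none passed the test, and 2 had no count in any of the 6 libraries. Their part in these results was not tested.

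Ligands of the EGF receptor family and feedback genes of the ERK pathway rose in part. Of 13 tested EGFR ligands, receptors and regulators 3 rose (23.1%, against 1.19% of all tested genes) and none fell (median 0.17): EREG (epiregulin), TGFA (transforming growth factor α) and NRG1 (neuregulin). EREG (chr4:75230860-75254468, hg19) had 1.94, 1.5 and 1.57 CPM with TGFβ and 5.45, 3.97 and 3.79 CPM with the combination, the largest change of any named gene (1.40 ± 0.14 SE, adjusted p = 0.000359). TGFA had 77.3, 73.0 and 74.5 and 102, 92.4 and 96.8 CPM (0.37 ± 0.05 SE, 0.00104). Neither gene's groups overlapped. NRG1 rose by 0.31 (0.0274), and its call was lost in 5 of the 6 fits with 1 library left out (up to 0.13). EGFR itself stood at 562 and 559.5 CPM (-0.01, adjusted p = 0.982). There were 3 higher and 1 lower member without the 4 libraries that stand apart.

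Of 18 tested ERK feedback genes 5 rose (27.8%, against 1.19% of all tested genes) and none fell, with a median of 0.17 and 17 positive changes. They are 3 phosphatases of MAP kinases, DUSP4, DUSP5 and DUSP6, SPRED1, an inhibitor of RAS signalling, and PHLDA1. DUSP5 went from 21.1, 20.1 and 19.2 to 29.3, 24.7 and 27.1 CPM (0.43 ± 0.07 SE, adjusted p = 0.00367) and DUSP4 from 103, 103 and 108 to 129, 130.0 and 126 CPM (0.29 ± 0.04 SE, 0.00185). In both all combination values were the higher ones. SPRED1 (0.34), DUSP6 (0.29) and PHLDA1 (0.19) had adjusted p-values of 0.026, 0.0403 and 0.0373, and the count of 5 fell to 2 without TGFβ libraries 4 or 5 or combination libraries 10 or 11 and to 3 without the others, and was 7 without the 4 libraries that stand apart. Of 20 tested AP-1 and early response factors only ATF3 passed the test (0.44, adjusted p = 0.0147), 5% against 1.19% of all tested genes higher. It lost the call on the 6 libraries alone (0.0544) and in 4 of the 6 fits with 1 library left out (up to 0.089). The fit without the 4 libraries that stand apart called 2 of these factors higher and 2 lower.

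The AP-1 letters TGACTCA and TGAGTCA, each the reverse complement of the other, were in 17 of 169 promoters of genes that rose (10.1%), in 0 of 140 of genes that fell, in 3.08% of the tested promoters and in 4.16% of the table. Among the 17 were CPA4, IL1A, TNFSF15 and IL8, and 3 of these windows are shown with the letters in capitals.
CPA4 (chr7:130293021-130293160, plus strand): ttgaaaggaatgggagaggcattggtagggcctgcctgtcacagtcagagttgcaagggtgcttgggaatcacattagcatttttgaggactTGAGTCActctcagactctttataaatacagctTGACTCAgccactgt
IL1A (chr2:112784494-112784633, minus strand): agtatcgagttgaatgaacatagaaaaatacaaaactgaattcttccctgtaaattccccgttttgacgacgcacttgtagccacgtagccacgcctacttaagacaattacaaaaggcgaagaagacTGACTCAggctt
TNFSF15 (chr9:114792577-114792716, minus strand): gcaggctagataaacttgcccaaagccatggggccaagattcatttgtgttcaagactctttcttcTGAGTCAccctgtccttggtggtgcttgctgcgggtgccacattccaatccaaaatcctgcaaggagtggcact
CPA4 holds the letters at 2 places that do not overlap, and the others at 1 each. The windows of IL24, IL1B and EREG held none, and no motif share was tested.

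The largest rises among genes of at least 5 CPM were spread over several functions. CYP1A1, a monooxygenase induced through the aryl hydrocarbon receptor, led with 4.16, 4.01 and 3.11 CPM and 7.17, 6.44 and 5.93 CPM (0.79 ± 0.11 SE, adjusted p = 0.00233). CPA4, a secreted carboxypeptidase, had 14, 14.2 and 14.4 and 26.3, 22.8 and 21.9 CPM (0.74 ± 0.07 SE, 0.000353), and G0S2, an inhibitor of triglyceride lipase, 32.0, 33.7 and 27.1 and 44.7, 53.5 and 52.9 CPM (0.70 ± 0.10 SE, 0.00185). All of these separated the groups, as the rule that picked them required. TFPI2, a secreted serine protease inhibitor (chr7:93514709-93520303, hg19), stood at 52.8, 49.9 and 52.3 and 85.5, 78.7 and 84.5 CPM (0.68 ± 0.05 SE), with the smallest adjusted p of the 30 extremes, 1.94e-05. PLIN2, a coat protein of lipid droplets, was close to it with 52.0, 50.2 and 52.1 and 83.4, 76.4 and 78.6 CPM (0.63 ± 0.05 SE, 2.37e-05). The spread within each group was small beside both differences. The other genes of the 15 were COL17A1 (a transmembrane collagen of hemidesmosomes, 0.67), PTPN22 (0.67), ABI3BP (0.67), RGS4 (a regulator of G protein signalling, 0.65), COL4A6 (a basement membrane collagen, 0.64), HIST1H2AC (a histone H2A, 0.63), UPP1 (uridine phosphorylase, 0.58), OTUB2 (0.58), CSF2RA (the α chain of the GM-CSF receptor, 0.56) and DGKI (a diacylglycerol kinase, 0.55). Of these 15 only PTPN22 lost its call in an alternative, without TGFβ library 4 (adjusted p = 0.059). COL4A6 overlaps ATG4A.

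Among secreted proteases and inhibitors 3 of 32 tested rose (9.38%, against 1.19% of all tested genes) and none fell (median 0.04): CPA4, MMP1 and TIMP3. MMP1, interstitial collagenase, had 2.81, 2.31 and 2.32 and 6.23, 6.69 and 6.03 CPM (1.35 ± 0.15 SE, adjusted p = 0.000606), a 2.55-fold rise at a low level. TIMP3, an inhibitor of metalloproteinases, went from 140.1 to 165 CPM on average (0.022), and lost the call on the 6 libraries alone (0.0749) and in 4 of the 6 fits with 1 library left out (up to 0.13). In the list 5 rose without the 4 libraries that stand apart. PDK4, which restrains pyruvate dehydrogenase, was the only one of 34 tested hypoxia and glycolysis genes past the test (2.94%, against 2.08% of all tested genes), at 1.39, 1.04 and 1.66 and 3.55, 2.74 and 3.18 CPM (1.21 ± 0.14 SE, 0.000684), in a list whose median was -0.09 and in which 1 rose and 8 fell without the 4 libraries that stand apart. Endothelial markers summed to 23.5 to 26.3 CPM with TGFβ and 27.5 to 32.3 CPM with the combination, mostly from ESAM, with 1 of 8 at 0 in all 6 libraries, and none of the 4 tested passed the test. Their part in these results was not tested.

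Of the 15 largest falls among genes of at least 5 CPM, 3 belong to the replication and cell-cycle lists above (MCM6, GINS2 and E2F2). SLC1A4, a transporter of alanine, serine and cysteine, fell most, from 10.5, 10.6 and 10.2 to 6.16, 6.10 and 6.0 CPM (-0.78 ± 0.07 SE, adjusted p = 0.000162). FAM111B, a protease-like protein, went from 53, 52.3 and 55.8 to 33.3, 31.0 and 30.0 CPM (-0.77 ± 0.07 SE, 0.000162), and WDR76 from 39.9, 39.7 and 42.9 to 29.5, 24.1 and 26.2 CPM (-0.62 ± 0.09 SE, 0.00257). The rule that picked these genes required groups that do not overlap. KIAA1199, now called CEMIP and known to bind hyaluronan, was the most abundant of the 15, at 298, 325 and 314 and 202, 212 and 205 CPM (-0.60 ± 0.08 SE, 0.00108). CFB, complement factor B, had 219.8, 226 and 221 and 151, 143 and 152 CPM (-0.58 ± 0.07 SE, 0.000647), and it overlaps C2 and a further entry of the same name, so its reads may be shared. The others were PTGFRN (-0.59), SLFN13 (-0.53), SYNE2 (a nuclear envelope protein that anchors the cytoskeleton, -0.65), RASGRP1 (an activator of RAS, -0.60), MBOAT1 (-0.55), LRRN1 (-0.54) and TNFRSF11B (osteoprotegerin, -0.54). The last 5 of these, from SYNE2 on, lost the call in 2 to 5 of the 6 fits with 1 library left out, with adjusted p-values of up to 0.13. SYNE2 also lost it without a filter, without the 4 libraries that stand apart and with an indicator for them.

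**Figure D3:**
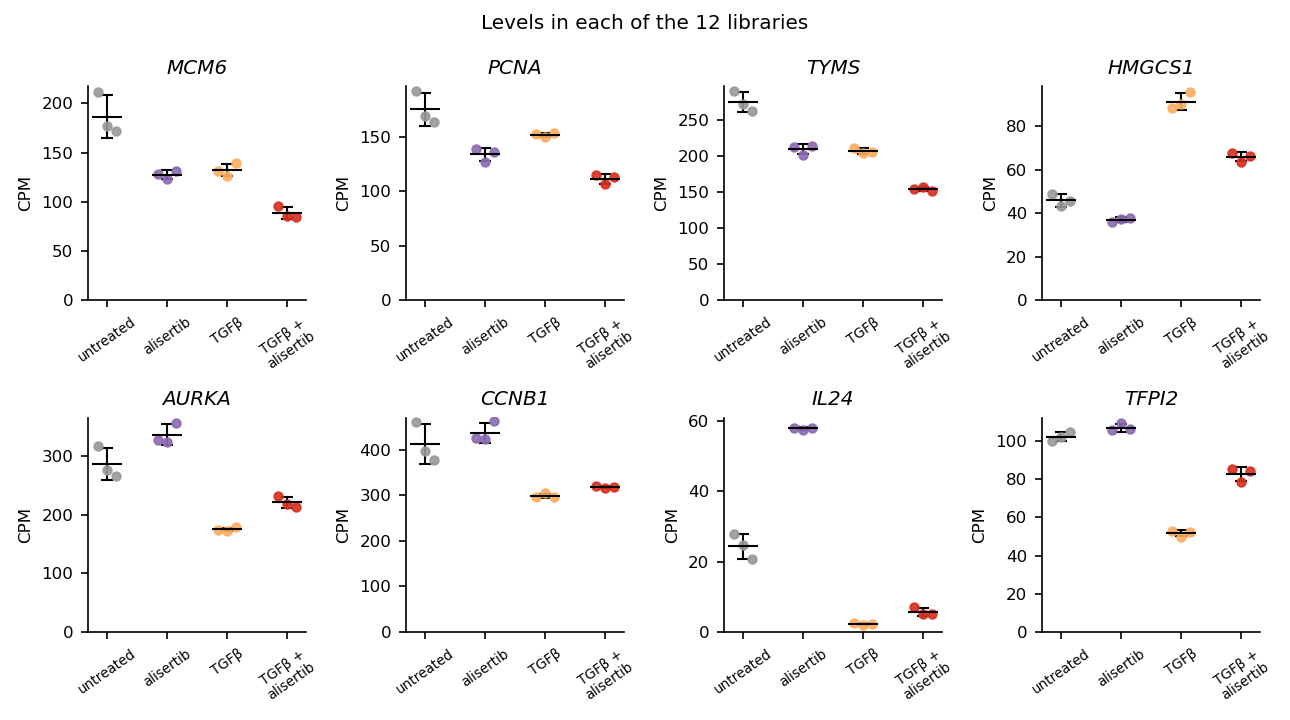
Level (CPM, axes from 0) of 8 genes in each of the 12 libraries, 1 point per library, with the group mean (bar) and SD (whiskers, n = 3). MCM6, PCNA, TYMS and HMGCS1 are lower in the combination than with TGFβ, AURKA, IL24 and TFPI2 higher, and CCNB1 did not pass the test.

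Histone genes of the clusters went up where they passed the test. These transcripts mostly lack poly(A) tails. Of 22 tested 4 rose (18.2%, against 1.19% of all tested genes) and none fell (median 0.23): HIST1H2AC, at 15, 15.7 and 13.9 and 22, 23.5 and 23.7 CPM (0.63 ± 0.06 SE, adjusted p = 0.000419), HIST1H2BC (0.76, 0.00594), HIST1H2BN (0.77, 0.0259) and HIST1H2BD (0.38, 0.0348). HIST1H2BN lost the call in 5 and HIST1H2BD in all 6 of the fits with 1 library left out (up to 0.12 and 0.16), and 6 members rose without the 4 libraries that stand apart. Members share near-identical sequence, so reads may be split between copies.

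Few genes of cell-cycle arrest and cell death passed the test. The calls were 12.5% of CDK inhibitors and GADD45 genes, higher, and 4.35% of p53 targets in each direction. Over all tested genes 1.19% were called higher and 0.890% lower. MDA-MB-231 is a p53-mutant line, and whether p53 acts on these targets here was not tested. CDKN1A, the CDK inhibitor p21, stood at 260.3, 265 and 233 CPM with TGFβ and 229.6, 269 and 274 CPM with the combination, with overlapping groups (log2 change 0.03 ± 0.09 SE, adjusted p = 0.96). GADD45A, a stress-induced growth arrest gene, was the only one of 8 tested CDK inhibitors and GADD45 genes past the test, from 17.6, 17.9 and 17.1 to 24.4, 23.5 and 24.1 CPM (0.45 ± 0.06 SE, 0.0017). Of 23 tested p53 targets PMAIP1, the BH3-only protein NOXA, rose from 41.7, 39.4 and 44.1 to 55.7, 49.6 and 55.0 CPM (0.36 ± 0.06 SE, 0.0072), and DDB2, a sensor of UV lesions, fell from 86.6 to 73.6 CPM on average (0.0292). PMAIP1 lost its call without TGFβ library 5 (adjusted p = 0.051) and without combination library 12 (0.054), and DDB2 in all 6 such fits (0.059 to 0.16). None of 21 tested apoptosis regulators passed the edgeR test (median 0.06), 4 had an unadjusted p under 0.05, and DESeq2 called 1. With 2.08% of all tested genes called, a list of 21 is too short for the absence of calls to set it apart. The fit without the 4 libraries that stand apart called 2 apoptosis regulators higher, 1 p53 target in each direction, and 1 CDK inhibitor or GADD45 gene in each direction.

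Among SMAD target and feedback genes 2 of 26 tested fell (7.69%, against 0.890% of all tested genes) and none rose, with a median of -0.04, 11 positive and 15 negative. SMAD7, the inhibitory SMAD, had 53, 51.4 and 49.7 and 46.8, 50.3 and 51.7 CPM (-0.05 ± 0.05 SE, 0.819), and PMEPA1, a feedback inhibitor of the pathway, 1096, 1113 and 1086 and 882, 981 and 1005 CPM (-0.20 ± 0.06 SE, 0.165). TGFBI, a matrix protein named for its induction by TGFβ, fell from 3042, 3103 and 3062 to 2548, 2551 and 2700.1 CPM (-0.24 ± 0.04 SE, 0.0124). CTGF, a matricellular protein, fell from 99.4, 101 and 101 to 87.1, 88.4 and 87.5 CPM (-0.19 ± 0.05 SE, 0.0481). In the contrast of TGFβ with untreated cells TGFBI rose by 3.14 (adjusted p = 9.3e-15). CTGF did not pass the test there (0.08, adjusted p = 0.196). Both calls rested on all libraries being present: TGFBI lost its call in 4 of the 6 fits with 1 left out (adjusted p of up to 0.071) and CTGF in all 6 (0.11 to 0.17), and 7 members fell and 1 rose without the 4 libraries that stand apart. Of 26 tested ligands, receptors and SMADs TGFBR2, the type II receptor (259 and 289 CPM, 0.16, adjusted p = 0.0475), and FST, the activin antagonist follistatin (0.60, 0.0441), were called higher (7.69%, against 1.19% of all tested genes). Leaving out 1 library ended the TGFBR2 call in all 6 fits (0.074 to 0.24) and the FST call in 5 (up to 0.17), and 3 rose and 3 fell without the 4 libraries that stand apart. SMAD5 had 111, 108 and 119 and 119, 115 and 109.9 CPM (adjusted p = 0.943).

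The lists of the epithelial-mesenchymal transition held no gene past the test: 0 of 8 transcription factors (median 0.15), 0 of 14 mesenchymal markers (0.03) and 0 of 31 epithelial markers (-0.03), against 2.08% of all tested genes. At an unadjusted p under 0.05 there were 1, 4 and 7, and DESeq2 called 0 transcription factors, 2 mesenchymal markers (lower) and 1 epithelial marker (higher). The absence of calls depended on the libraries: without the 4 libraries that stand apart 2 transcription factors rose, 1 mesenchymal marker rose and 1 fell, and 4 epithelial markers rose and 2 fell. That fit called 1434 of all genes. VIM, vimentin, stood at 2038, 2002 and 2067 and 2063, 2034 and 2133 CPM and ZEB1, a repressor of epithelial genes, at 79.2, 76.0 and 82.3 and 92.3, 86.7 and 89.3 CPM. The VIM groups overlapped and the ZEB1 groups did not (adjusted p = 0.865 and 0.121), and ZEB1 was called higher without the 4 libraries that stand apart (0.0121) and with an indicator for them (0.00275). The repressors SNAI1 and SNAI2 had log2 changes of 0.01 ± 0.18 and 0.16 ± 0.09 SE, and CDH1 and CDH2, E- and N-cadherin, of 0.26 ± 0.11 and 0.46 ± 0.14, with levels under 5 CPM for both cadherins. SNAI2 (0.0325) and CDH2 (0.0141) were called higher without the 4 libraries that stand apart, and CDH2 also with the indicator (0.0173). FN1, fibronectin, was the nearest to the threshold, at 5744, 5593 and 6138 and 4939, 4525 and 5043 CPM (-0.27 ± 0.07 SE, 0.0788), and it was called lower with DESeq2 (0.0443) and on the 6 libraries alone (0.0428). Of 14 tested stemness markers 1 rose (7.14%, against 1.19% of all tested genes) and none fell, with a median of 0.07 and 13 positive changes. The gene that rose was ITGA6 (0.24), whose call was lost in 5 of the 6 fits with 1 library left out. CD44 (0.04) and MYC (0.05), of the same list, did not pass the test. Among 46 tested matrix genes COL17A1 and COL12A1 rose (4.35%, against 1.19% of all tested genes) and THBS1, EFEMP1 and CTGF fell (6.52%, against 0.890%), with a median of 0.00, and 6 rose and 6 fell without the 4 libraries that stand apart. THBS1, thrombospondin 1, which can activate latent TGFβ, is among the most abundant, at 5122, 5148 and 5207 and 4054, 4224 and 4099 CPM (-0.32 ± 0.04 SE, 0.00116), and EFEMP1, fibulin 3, had 195, 201 and 202 and 168, 157 and 154 CPM (-0.32 ± 0.05 SE, 0.00228). Both calls held in all alternatives, while that of COL12A1 (0.27, 0.0375) was lost in 5 of the 6 fits with 1 library left out (up to 0.14). Luminal markers summed to 729.7 to 837 CPM with TGFβ and 686 to 771 CPM with the combination, with KRT8 the highest of them, with 1 of 11 at 0 in all 6 libraries.

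The same drug without TGFβ gives a reference that shares no library with this comparison. Alisertib against untreated cells changed 1387 genes, 6.74%, against 428 with TGFβ. Of the 428 genes 289 were called in the same direction without TGFβ (67.5% of the 428 and 20.8% of the 1387), 141 higher and 148 lower, 5 were called in opposite directions, and 134 were called with TGFβ and not without. Of those 134 genes 109 had the same sign without TGFβ, 64 an unadjusted p under 0.05 there, and 9 a difference between the effects that passed its own test. The median size of change of the 1387 genes was 0.20 with TGFβ and 0.40 without, where they had been selected. That of the 428 genes was 0.39 with TGFβ, where they had been selected, and 0.35 without. Across 14243 genes of at least 1 CPM the effects had a Pearson's r of 0.599 and a Spearman's rho of 0.613, given as a description, since genes are not independent and the libraries share the deviations named above.

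The genes that moved most with TGFβ are given beside their change without it. DNA replication had 26 genes lower with TGFβ and 27 lower without, 23 of them the same genes, with medians of -0.31 and -0.30. MCM6 changed by -0.55 ± 0.07 SE without TGFβ and -0.58 ± 0.07 SE with it, FAM111B by -0.78 ± 0.07 and -0.77 ± 0.07, and PCNA by -0.39 ± 0.06 and -0.45 ± 0.06. In none of the 47 replication genes did the difference between the effects pass the test, which held for all but 0.282% of the tested genes. The levels differed, since MCM6 averaged 187 ± 21.5 CPM in untreated cells, 128 ± 4.19 with alisertib, 133 ± 6.37 with TGFβ and 88.6 ± 5.98 with both (SD, n = 3). IL24 rose by 1.25 ± 0.13 SE without TGFβ and 1.35 ± 0.15 SE with it, but from 24.3 to 57.8 CPM in the first case and from 2.24 to 5.73 CPM in the second.

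**Figure D4:**
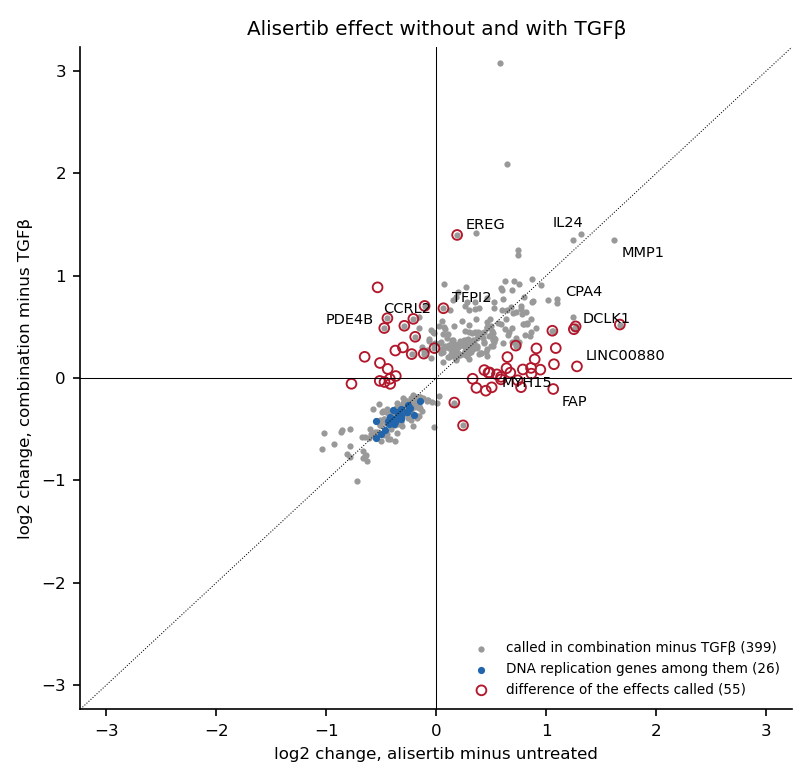
Log2 change with TGFβ (combination minus TGFβ, vertical) against that without (alisertib minus untreated, horizontal) for genes of at least 1 CPM: 399 of the 428 genes past the test with TGFβ (grey, with 26 replication genes in blue) and 55 of the 58 genes whose effects differed (red rings). The dotted line marks equal effects, and the replication genes lie along it while ringed genes lie off it by construction.

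The effect of alisertib differed with and without TGFβ in 58 genes (0.282%), 24 with the larger value with TGFβ and 34 with the smaller. Of the 34, 33 rose with alisertib alone, and 7 of the 34 also passed the test with TGFβ. Of the 24, 16 fell with alisertib alone and 12 rose with TGFβ. EREG averaged 19.5 ± 1.32 CPM untreated and 22.2 ± 1.28 with alisertib (log2 change 0.19 ± 0.12 SE), against 1.67 ± 0.238 with TGFβ and 4.40 ± 0.913 with both (SD, n = 3), a difference between effects of 1.21 ± 0.18 SE (adjusted p = 0.0125). CCRL2, an atypical chemokine receptor, fell with alisertib alone, from 29.6, 30.4 and 29.3 to 23.3, 24.6 and 25.1 CPM, and rose under TGFβ, from 6.78, 6.83 and 6.17 to 10.0, 8.75 and 9.39 CPM (difference 0.80 ± 0.10 SE, 0.00437). PDE4B, a phosphodiesterase of cyclic AMP, did likewise, from 16.2 to 11.7 CPM and from 1.34 to 1.89 CPM (0.96 ± 0.12 SE, 0.00674). TFPI2 did not pass the test without TGFβ, at 99.8, 102 and 105 and 106, 109 and 106 CPM, and its effects differed by 0.62 ± 0.07 SE (0.00245).

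In the other direction stood genes that rose with alisertib alone and were already high with TGFβ. LINC00880, a long non-coding RNA, averaged 3.21 and 7.80 CPM without TGFβ and 15 and 16.2 CPM with it, so the first pair differed (1.28 ± 0.08 SE) and the second did not pass the test (0.11 ± 0.08 SE); the difference between effects was -1.17 ± 0.11 SE (adjusted p = 0.00162). ADAMTS6, a secreted metalloproteinase, had 22.2 and 37.9 CPM without and 102 and 95.6 CPM with TGFβ (-0.86 ± 0.10 SE, 0.00294), and MYH15, a myosin heavy chain, 22.6 and 41.0, then 128 and 137 CPM (-0.76 ± 0.09 SE, 0.00423). Each of the 3 had its largest step between the libraries without and with TGFβ. Of the SMAD target and feedback list 3 of 26 passed this test, against 0.282% of all tested genes. They were TGFBI (-0.40, 0.0157), IL11, a cytokine of the IL-6 family (-0.52, 0.0258), and KLF10, an early TGFβ response factor (-0.36, 0.0408). Of the 26, 23 were called higher with TGFβ than in untreated cells, and the share among other genes raised by TGFβ is not given here. The count of 58 rests on few libraries: it was 19 without alisertib library 9, 166 without untreated library 1 and 744 without the 4 libraries that stand apart.

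**Figure D5:**
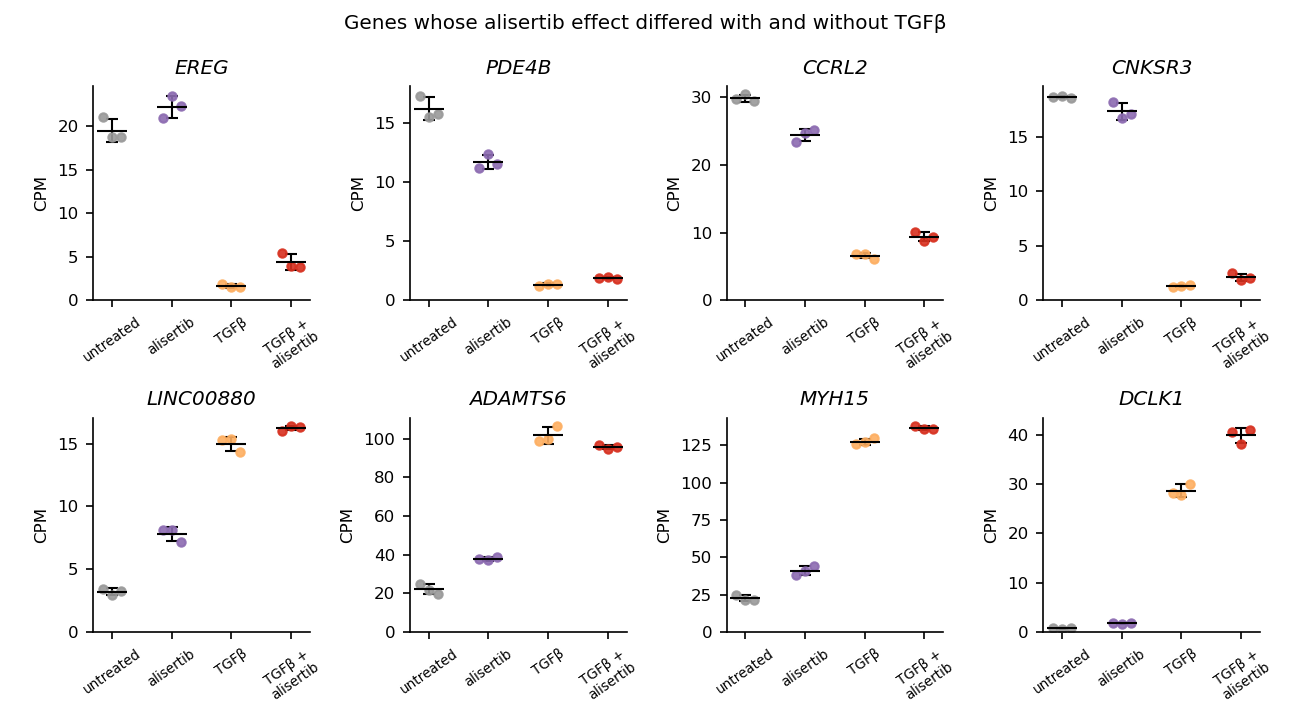
Level (CPM, axes from 0) of 8 genes whose alisertib effect differed with and without TGFβ, 1 point per library, with the group mean (bar) and SD (whiskers, n = 3). EREG, PDE4B, CCRL2 and CNKSR3 are low in both groups with TGFβ and LINC00880, ADAMTS6, MYH15 and DCLK1 are high in both.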

How the data were processed

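RNA was extracted with a miRNeasy kit and sequenced from TruSeq RNA v2 libraries, per the labels' protocols, a kit that does not mark the strand. The tools named are bcl2fastq, TopHat, Subread and featureCounts, on hg19, per the submitters' processing notes, and their versions and settings are not given in the sources used here. Raw read counts for every gene, which are whole numbers, were deposited by the authors beside RPKM values that were not used. Total counts per library were 93701658 to 120619368, so at most genes the spread between libraries limits the precision and not counting.

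From these raw counts a model was fitted in edgeR 4.0.16 (R 4.3.3): filterByExpr, TMM factors and a robust quasi-likelihood fit of the 4 groups over all 12 libraries, with 8 residual degrees of freedom. Contrasts were combination minus TGFβ, alisertib minus untreated, the difference of these 2, and TGFβ minus untreated. SE values are derived from the log2 change and its F statistic. The fit was also run on simulated data with independent libraries. These lack the deviation along GC content that libraries share here, so that run cannot show how the fit handles it. Alternatives were DESeq2 1.42.0, its size factors in edgeR, no filter on low counts, the 6 libraries alone, fits without or with an indicator for the 4 libraries that stand apart, and fits with 1 library left out.

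The comparison, the gene lists and the motifs were chosen with earlier results of these data known. Lists are described by counts and medians and were not tested as sets. The rule for named genes takes, from called genes of at least 5 CPM whose groups do not overlap, the 15 that rose most and the 15 that fell most, up to 6 called members of a list, fixed genes of the Aurora, TGFβ and EMT programmes, and the 6 highest and 6 lowest differences between effects. Every other gene named, such as further called members of a list, members that did not pass the test, IL11 and KLF10, falls outside this rule and was named after its values were seen. Coordinates of genes are those of the deposited table in hg19. Besides the overlaps given above, further named genes overlap another tested locus, and their reads may be mixed. They include KIF20A (with BRD8 and CDC23), KIF15 (TMEM42), CCNE2 (INTS8 and NDUFAF6), CCND1 (ORAOV1) and FANCA (ZNF276). RAD54L (LRRC41), FANCL (VRK2), KIAA1199 (MESDC2) and LRRN1 (SUMF1) are also among them. Promoters are from RefSeq on GRCh38.p14, of which 12439 were matched to the 20571 tested genes by symbol or gene ID. Some list members are counted in their lists and not reported here.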

Additional observations from a re-analysis of the deposited data

Results flagged for a closer look

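The differences listed here were picked out because the effect of alisertib with TGFβ and the effect without it differed by the edgeR test of the difference itself. Of the 58 such genes they are the 6 highest and 6 lowest among those that averaged 5 CPM or more over the 12 libraries, so their size is a result of that choice. Higher with TGFβ than without were EREG by 1.21 ± 0.18 SE on the log2 scale (adjusted p = 0.0125), PDE4B by 0.96 ± 0.12 (0.00674), SLC1A3, a glutamate transporter, by 0.86 ± 0.14 (0.025), CNKSR3 by 0.81 ± 0.14 (0.0297), CCRL2 by 0.80 ± 0.10 (0.00437) and RCSD1 by 0.79 ± 0.13 (0.0228). All 3 values of each group with TGFβ lay below all 3 of each group without it in these 6 genes.

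Lower with TGFβ than without were FAP, fibroblast activation protein, with a difference of -1.17 ± 0.20 SE (0.0281), LINC00880 with -1.17 ± 0.11 (0.00162), ADAMTS6 with -0.86 ± 0.10 (0.00294), PTPRR, a tyrosine phosphatase, with -0.79 ± 0.13 (0.0214), DCLK1, a microtubule-associated kinase, with -0.77 ± 0.14 (0.0297) and MYH15 with -0.76 ± 0.09 (0.00423). In these 6 the values with TGFβ all lay above those without. FAP went from 0.294 to 0.615 CPM without TGFβ and from 34.3 to 31.9 CPM with it. DCLK1 went from 0.728 to 1.73 CPM and from 28.7 to 39.9 CPM, so it rose in both settings (1.25 ± 0.11 and 0.48 ± 0.08 SE). LINC00880 overlaps the locus RP11-6F2.5, and without strand the reads of overlapping genes cannot be told apart.

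Leaving out 1 of the 12 libraries ended the call of FAP in 9 fits (adjusted p of up to 0.099), of DCLK1 in 10 (0.096), of PTPRR in 8 (0.080), of SLC1A3 in 8 (0.091), of CNKSR3 in 9 (0.12), of RCSD1 in 9 (0.090) and of EREG in 4 (without TGFβ libraries 5 or 6 or alisertib libraries 7 or 9, up to 0.061). The calls of LINC00880, ADAMTS6, MYH15, PDE4B and CCRL2 held in all 12.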

How the results depend on the processing

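No called named gene changed direction under any alternative. All 428 genes kept the sign of their log2 change in every alternative except the fit on the 6 libraries alone, where 424 did. The other 4 either changed sign there or did not pass that fit's expression filter, which the count does not tell apart. Genes called were 428 in the fit reported, 689 with DESeq2 (389 higher, 300 lower), 1434 without the 4 libraries that stand apart (683 and 751) and 1820 with an indicator for them (918 and 902). Of the 428, these fits kept 426, 402 and 427, all in the same direction, but the balance of calls turned from 57.2% higher to 47.6% without the 4 libraries and 45.6% on the 6 libraries alone. Size factors of DESeq2 gave 385, no filter 475, and the 6 libraries alone 307, where 140 were higher. With 1 library left out there were 153 to 243 calls, 83 to 136 higher and 70 to 116 lower, from fits with fewer libraries. The cause of the larger counts was not tested. The comparison of alisertib with untreated cells gave 1387 calls, 5073 without the 4 libraries, 4057 with the indicator and 718 to 2598 with 1 left out. Calls shared in the same direction by both comparisons were 289, 972 without the 4 libraries and 1243 with the indicator. The difference between the effects was called in 58 genes, 174 with DESeq2, 105 without a filter, 744 without the 4 libraries, 382 with the indicator and 19 to 166 with 1 left out. Of the 103 named genes called in the fit reported 54 kept the call in every alternative and 49 lost it in at least 1 fit with a library left out. No paired analysis was possible because the replicate numbers run from 1 to 12 through the series and no number is shared between groups.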

Other observations

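Interferon-stimulated genes moved in 2 of 41 tested members, GBP2, a guanylate-binding GTPase (32.5, 32.7 and 35.2 CPM with TGFβ, 28.4, 24.2 and 23.9 CPM with the combination, log2 change -0.39 ± 0.07 SE, edgeR adjusted p = 0.00972), and OAS3, a sensor of double-stranded RNA (34.5, 33.9 and 33.4 and 23.7, 28.7 and 25.8 CPM, -0.38 ± 0.07 SE, 0.0102), both lower. They made up 4.88% of the list, against 0.890% of all tested genes called lower, and the list's median was 0.02. GBP2 lost the call without combination library 11 (adjusted p = 0.056) and OAS3 without TGFβ library 4 (0.063). None of 24 tested genes of MHC class I and II passed the test, with a median of 0.02, 1 at an unadjusted p under 0.05 and 1 with DESeq2.

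Adhesion and cytoskeleton gave single genes. Called were 5.56% of integrins, 2.70% of actin and contractility genes, and 3.45% of YAP and TAZ targets in each direction. Over all tested genes 2.08% were called, so such counts say little about the lists. ITGA6, the integrin α chain that binds laminin, was the 1 of 18 tested integrins past the test (686, 683 and 727 and 851, 803 and 829.8 CPM, 0.24 ± 0.05 SE, 0.0274), and it lost the call in 5 of the 6 fits with 1 library left out (up to 0.14). MYH10, a non-muscle myosin II, was the 1 of 37 genes of actin and contractility that fell (139.9, 138 and 141 and 115, 114 and 117 CPM, -0.28 ± 0.04 SE, 0.00142), in a list with 29 negative changes and a median of -0.04. Its locus overlaps NDEL1, and without strand their reads may be mixed. Of 29 YAP and TAZ targets CTGF, described above, fell and ANKRD1 rose (49.5, 49.5 and 53 and 73.9, 61.3 and 61.9 CPM, 0.37 ± 0.07 SE, 0.0137), with the call lost without TGFβ libraries 4 (0.084) or 5 (0.077).

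Of 32 tested ATF4 and stress response genes ASNS, asparagine synthetase, was the only one called (70.6 and 56.5 CPM on average, -0.32 ± 0.07 SE, 0.022), and of 27 lysosome and autophagy genes NPC2, a cholesterol carrier of the lysosome (292 and 252 CPM, -0.21 ± 0.05 SE, 0.0295). ASNS lost the call in 4 and NPC2 in 6 of the 6 fits with 1 library left out (up to 0.11 and 0.14). They made up 3.1% and 3.7% of their lists, against 2.08% of all tested genes called. Ribosome biogenesis (23 tested, median 0.03), nuclear genes of the respiratory chain (28, median 0.00) and mitochondrially encoded transcripts (15, median 0.01) held no called gene by edgeR, with 4, 1 and 0 at an unadjusted p under 0.05 and 0, 0 and 0 with DESeq2. Without the 4 libraries that stand apart more were called: 6 interferon-stimulated genes higher and 3 lower, 2 MHC genes lower, 1 integrin in each direction, 2 actin and contractility genes in each direction, 3 YAP and TAZ targets higher and 4 lower, 2 ATF4 and stress genes higher and 3 lower, 3 lysosome and autophagy genes higher and 1 lower, 1 ribosome biogenesis gene lower, 1 mitochondrially encoded transcript higher and 0 of the respiratory chain. That fit called 1434 of all genes, against 428 in the fit reported, so these counts are not to be set against 2.08%.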
